A study of Rattus norvegicus with 6 samples.

Results

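Fam111a (ENSRNOG00000012067, a protein-coding gene on chromosome 1) is 1 of the 19616 genes in a table of RNA levels from rat livers, and 1 of the 14864 genes whose mean over the 6 rats reached 0.1 FPKM. It was chosen by its increase in fibrotic liver, which was the largest of all genes tested on the log2(FPKM + 0.1) scale, so its own values in that contrast are a description and carry no test. The FL group was 3 male SD rats (rats 2, 5 and 12) that received CCl4, a liver toxin, mixed with olive oil by intraperitoneal injection, at 2 mL per kg of body weight and 2 times a week for 5 weeks. The CL group was 3 male SD rats (rats 5, 6 and 7) that received olive oil alone, and the age of the rats is not given in the sources used here. Total RNA depleted of ribosomal RNA was sequenced from whole liver, with 1 library per rat, so the p-values measure the spread between these few rats. FPKM values are scaled to library size and transcript length, so levels can be compared between genes. The 3 values of a group are given in the order CL5, CL6, CL7 or FL2, FL5, FL12. All 6 libraries carried RNA of hepatocytes, with albumin (Alb) between 31431 and 33392 FPKM in the CL rats and between 24149 and 25209 FPKM in the FL rats.

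FAM111A is a nuclear serine protease with a trypsin-like domain. It binds PCNA, the ring that holds polymerases on DNA, and helps replication forks to pass proteins that are trapped on the template, such as topoisomerase I. It also restricts the growth of certain DNA viruses, and inherited mutations of the human gene cause Kenny-Caffey syndrome, a disorder of bone growth and calcium balance. The data were therefore read along the roles of its partners: the PCNA ring, the repair of DNA-protein crosslinks, DNA replication, mitosis, antiviral interferon targets and related proteases.

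Fam111a was barely expressed in the CL group and well expressed in the FL group. Its level was 0.21, 0.14 and 0.34 FPKM in the CL rats and 39.3, 22.6 and 15.1 FPKM in the FL rats. Every FL rat was far above every CL rat, FL2 was the highest and FL12 the lowest of the FL group, and the lowest FL value was 44.4 times the highest CL value. The means were 0.23 ± 0.101 and 25.7 ± 12.4 FPKM (SD, n = 3), a ratio of 112. On the log2(FPKM + 0.1) scale the difference was 6.22 (limma standard error 0.36), or 5.93 above the median difference of all genes tested, which was itself 0.29. By mean level, Fam111a was number 12757 of the 14864 genes in the CL group and number 1296 in the FL group. Its order among the FL rats was the same with median scaling, at 38.3, 20.5 and 13.5, and with quantile normalization, at 37.3, 21.3 and 13.9 FPKM. In whole tissue, more cells that carry a transcript and more RNA per cell cannot be told apart.

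The place at the top of the list depended on how an increase was measured. The gene just below it was Mmp12, the macrophage elastase, at 0.02, 0.19 and 0.13 FPKM in the CL rats and 4.02, 24.5 and 12.8 FPKM in the FL rats, a log2 difference of 5.77. Lcn2, the iron-siderophore binding lipocalin of the acute phase, followed with 5.68, with 490, 13.1 and 168 FPKM in the FL rats. The FL rats spanned 1.37 on the log2 scale for Fam111a, 2.58 for Mmp12 and 5.21 for Lcn2. Next came Dbp, a transcription factor with a strong daily rhythm, with a log2 difference of 5.13, and Lilrb4, an inhibitory receptor of myeloid cells, with 4.63, and both were more even than Fam111a, with spans of 0.31 and 0.97. AABR07065834.1 also had a log2 difference of 4.63, and was listed at 0 in the 3 CL rats against 3.97 FPKM in FL2 and 2.74 FPKM in FL12, with FL5 lowest. By the plain ratio of group means, Fam111a was number 4 of the 14767 genes with a CL mean above 0, after Plcxd3, Mmp12 and Cthrc1. Of all genes tested, only Fam111a and Mmp12 combined a CL mean of at most 0.5 FPKM with an FL mean of at least 10 FPKM, limits that were set after the values were seen. With a pseudocount of 1, Lcn2 moved above Fam111a, and with a pseudocount of 0.01, AABR07065834.1 and Mmp12 did. Without CL6 or without FL2 Mmp12 was above it, and without FL5 Lcn2 was.

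The next question was where Fam111a stood among genes of cell proliferation. Of 71 such genes tested, 15 were upregulated in the FL group and 0 downregulated by limma (adjusted p under 0.05 and at least 2-fold), against 9.29% and 0.935% of all genes tested. That excess depended on the processing: 3 of 71 were upregulated with a pseudocount of 1 (3.11% of all genes tested), 5 of 74 without a filter (6.32%), 5 of 70 with median scaling (5.56%) and 1 of 70 with quantile normalization (3.07%), but 8 of 32 when the mean had to reach 1 FPKM (8.11%), 9 of 71 without trend (8.83%) and 14 of 71 with a pseudocount of 0.01 (9.60%). The 71 genes had a median log2 difference of 1.15, or 0.86 above that of all genes, and this gap was 0.32 with a pseudocount of 1, 0.90 with median scaling, 0.69 with quantile normalization and between 0.66 and 1.20 under the other alternatives. Fam111a was number 1 of 72, the 71 genes and itself, by log2 difference, a place given by its choice as the largest increase, and number 1 by FL and 47 by CL mean level. The largest log2 difference of any proliferation gene was 2.35, for Birc5. The FL groups of these genes lay entirely above the CL group in 29 of 71, against 35.7% of all genes tested.

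**Figure D1:**
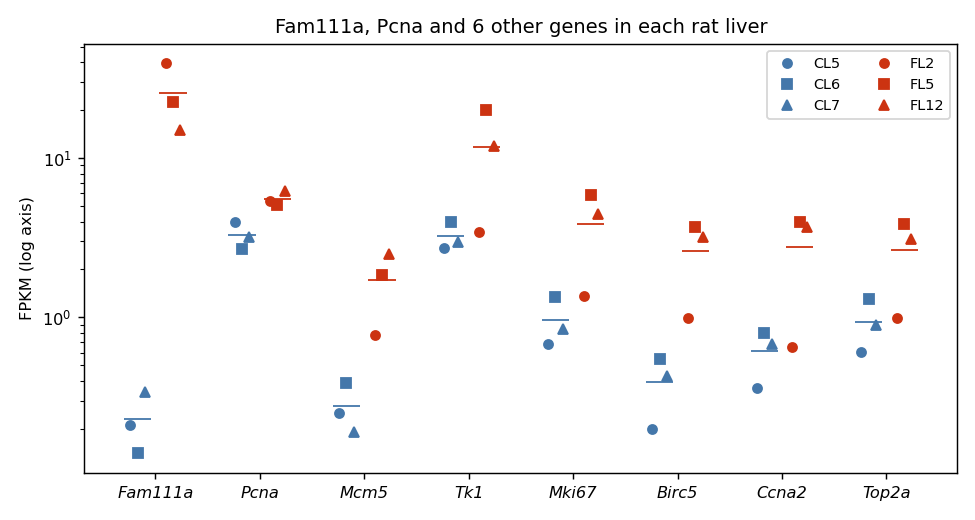
FPKM on a log axis in each CL rat (blue) and each FL rat (red) for Fam111a, Pcna, 5 proliferation genes and Top2a, with a marker shape for each rat of a group and horizontal bars at group means (n = 3). Fam111a lies between 0.14 and 0.34 FPKM in the CL rats and between 15.1 and 39.3 FPKM in the FL rats, while FL2 is the lowest FL rat for Mki67, Birc5, Ccna2, Top2a, Mcm5 and Tk1.

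Among the genes of mitosis, 8 of 32 tested were upregulated and 0 downregulated, against 9.29% and 0.935% of all genes tested, and the median log2 difference was 1.41. Upregulated were 29 without FL2 (12.3% of all genes tested), 4 without CL6, 0 without each other rat and 0 with quantile normalization. Birc5, or survivin, a subunit of the chromosomal passenger complex, had 0.20, 0.55 and 0.43 FPKM in the CL rats and 0.99, 3.70 and 3.19 FPKM in the FL rats. It was higher in all 3 FL rats (log2 difference 2.35, limma adjusted p = 0.0187, between 0.00416 and 0.0693 over the alternatives). Mki67, the gene of the Ki-67 antigen, had 0.68, 1.35 and 0.85 FPKM in the CL rats and 1.36, 5.83 and 4.43 FPKM in the FL rats. FL2 was thus level with CL6 for Mki67 (log2 difference 1.73, limma adjusted p = 0.0478, between 0.00457 and 0.144 over the alternatives). Kif23, Cenpf and Tpx2, which serve cytokinesis, the kinetochore and the spindle, were also upregulated, with log2 differences of 1.90, 1.88 and 1.73, calls that were kept in 3 of 12, 6 of 12 and 7 of 13 alternatives in which they were tested. Cyclin A2 (Ccna2) and topoisomerase II alpha (Top2a, here in the list of crosslink repair) had log2 differences of 1.72 and 1.27 and did not pass the test, with FL2 inside the CL range for both, and neither did Cdc20, the most abundant mitosis gene, with 1.10. Without FL2 these 3 genes were upregulated, with log2 differences of 2.52, 1.83 and 1.76.

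The sum over the mitosis genes was 10.3, 19.6 and 12.6 FPKM in the CL rats and 16.8, 70.3 and 57.6 FPKM in the FL rats. FL2, the rat with the highest Fam111a level, was within the CL range, and FL5 and FL12 were far above it. FL2 was the lowest FL rat for 32 of 32 mitosis genes and for 66 of 71 proliferation genes, against 51.2% of all genes tested. With median scaling it was the lowest for 64 of the 71 genes (40.4% of all genes tested), and with quantile normalization for 60 (35.1%). The order seen for Fam111a, with FL2 highest, then FL5, then FL12, was found in 1 of 71 proliferation genes, the primase subunit Prim2, and in 12.1% of all genes tested. Without FL2, 43 of 72 proliferation genes tested were upregulated (12.3% of all genes tested). Without CL6 it was 6 of 73 (6.70%), without CL5 1 of 71 (6.25%), without FL12 1 of 68 (6.50%), without CL7 0 of 71 (4.95%) and without FL5 0 of 70 (5.06%).

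Of the genes of DNA replication, 7 of 39 tested were upregulated and 0 downregulated, against 9.29% and 0.935% of all genes tested, with a median log2 difference of 0.74. The number was 14 of 40 without FL2 (12.3% of all genes tested), 2 without CL6, 0 or 1 without each other rat and 1 with a pseudocount of 1 or quantile normalization. Mcm5, a subunit of the replicative helicase, had 0.25, 0.39 and 0.19 FPKM in the CL rats and 0.78, 1.86 and 2.50 FPKM in the FL rats. All FL rats were above all CL rats, but in the reverse order of Fam111a (log2 difference 2.16, limma adjusted p = 0.0136, between 0.00392 and 0.0568 over the alternatives). The helicase subunits Mcm3, Mcm6 and Mcm2 were upregulated with log2 differences of 1.86, 1.75 and 1.22, and so was Uhrf1, a reader of newly copied DNA methylation, with 1.56. These calls were kept in 3 of 13 alternatives for Mcm3 and Mcm6, 6 of 13 for Mcm2 and 3 of 12 for Uhrf1. Thymidine kinase (Tk1), with a log2 difference of 1.53, did not pass the test: FL2 had 3.44 FPKM, within the CL range of 2.74 to 3.97, while FL5 and FL12 had 20.02 and 11.9 FPKM. Without FL2 it was upregulated, with a log2 difference of 2.24. Rrm2, a subunit of ribonucleotide reductase, was at or below 0.28 FPKM in all 6 rats.

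The PCNA ring and its other partners differed far less than Fam111a. Pcna had 3.95, 2.67 and 3.22 FPKM in the CL rats and 5.38, 5.05 and 6.23 FPKM in the FL rats. Its FL rats were all above its CL rats, but the log2 difference of 0.75 was below the 2-fold limit (limma adjusted p = 0.0236, between 0.0178 and 0.174 over the alternatives). In the FL group, Fam111a was thus at a higher level than the gene of the ring it binds in each rat, and in the CL group at a lower one. Of 24 genes of PCNA and its partners tested, 2 (8.33%) were upregulated and 0 downregulated, close to the 9.29% of all genes tested that were upregulated, and the median log2 difference was 0.48. The 2 genes were Cdt1, which licenses replication origins, and Ns5atp9, the PCNA-associated factor also called Pclaf, with log2 differences of 1.80 and 1.51, calls that were kept in 6 and 2 of 12 alternatives. The most abundant partners were Pold4, a small subunit of polymerase delta, and Rfc1, of the clamp loader, with log2 differences of 0.70 and -0.16, neither called. The order of Fam111a in the FL rats was found in 0 of these 24 genes. The median difference of the list fell to -0.02 with quantile normalization, where that of all genes was -0.05. Without FL2, 5 of the 24 genes were upregulated (12.3% of all genes tested), without CL6 2, and without any other single rat 0.

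Among 22 tested genes that handle DNA-protein crosslinks and damaged forks, 2 (9.09%) were upregulated and 0 downregulated, a share close to the 9.29% of all genes tested, and the median log2 difference was 0.45. The 2 genes were the recombination genes Brca1 and Brca2, with log2 differences of 1.36 and 1.14, calls that were kept in 11 of 13 and 3 of 12 alternatives. Sprtn, another protease that clears proteins from the template, had 1.53 ± 0.0854 FPKM in the CL group and 1.96 ± 0.206 in the FL group (SD, n = 3), and with a log2 difference of 0.34 it did not pass the test. Top1, the gene of topoisomerase I, had a log2 difference of 0.30, and it also did not pass. For both genes the sign turned with quantile normalization. Vcp, an unfolding ATPase, and Parp1, a sensor of DNA breaks, were the most abundant of the list. The CL and FL means were 72.3 and 71.8 FPKM for Vcp and 12.4 and 12.8 FPKM for Parp1, and neither gene was called. Without FL2, 6 of the 22 were upregulated (12.3% of all genes tested), and without each other rat 1.

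Other serine proteases of the trypsin fold gave 1 upregulated gene of 8 tested (12.5%, near the 9.29% of all genes tested) and 0 downregulated genes, with a median log2 difference of 0.24 that turned to -0.15 with quantile normalization. This was Htra3, a secreted protease of the HtrA family, at 0.17, 0.30 and 0.31 FPKM in the CL rats and 0.95, 1.58 and 2.87 FPKM in the FL rats. Its order among the FL rats was the reverse of that of Fam111a (log2 difference 2.30, limma adjusted p = 0.00973, between 0.00511 and 0.0388 over the alternatives). Htra1 and the peroxisomal protease Tysnd1, the most abundant of the list, had log2 differences of 0.08 and -0.27 and did not pass the test. Prtn3, a neutrophil protease, was listed at 0 in all 6 rats.

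**Figure D2:**
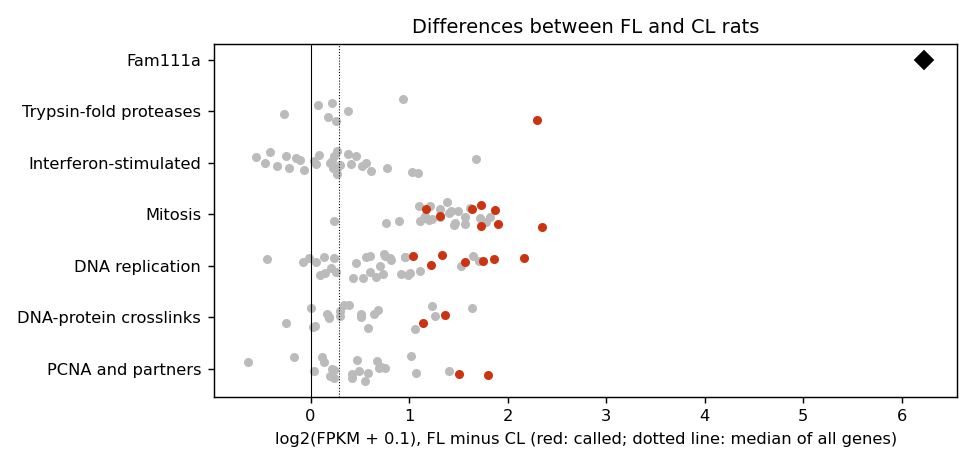
Difference of log2(FPKM + 0.1) between the FL and CL groups (n = 3 each) for Fam111a (black diamond) and for each tested gene of 6 lists, with called genes in red and the others in grey, and a dotted line at the median of all genes tested, 0.29. Fam111a, at 6.22, is to the right of every gene of these lists, of which the mitosis gene Birc5 is the highest at 2.35.

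Interferon targets were not called as differing between the groups, yet many shared the order of Fam111a among the FL rats. Of 30 tested, 0 were called in either direction by limma and 5 had an unadjusted p under 0.05, against 35.5% of all genes tested, and the median log2 difference was 0.23, or -0.05 beside that of all genes. With quantile normalization the median difference turned to -0.13. FL12 was the lowest FL rat for 26 of the 30 genes, against 24.8% of all genes tested, and 13 of the 30 had the full order of Fam111a, against 12.1%. With median scaling 16 had that order (18.0% of all genes tested), and with quantile normalization 17 (19.1%). The sum over the list was 272, 230 and 246 FPKM in the CL rats and 288, 281 and 185 FPKM in the FL rats, so FL12 was below all 3 CL rats, whereas for Fam111a it was far above them. The most abundant genes were Ifi27 and Bst2, the latter known as tetherin, with log2 differences of -0.25 and 0.08, neither called. Without FL12, 3 of the 30 genes were upregulated, against 6.50% of all genes tested.

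**Figure D3:**
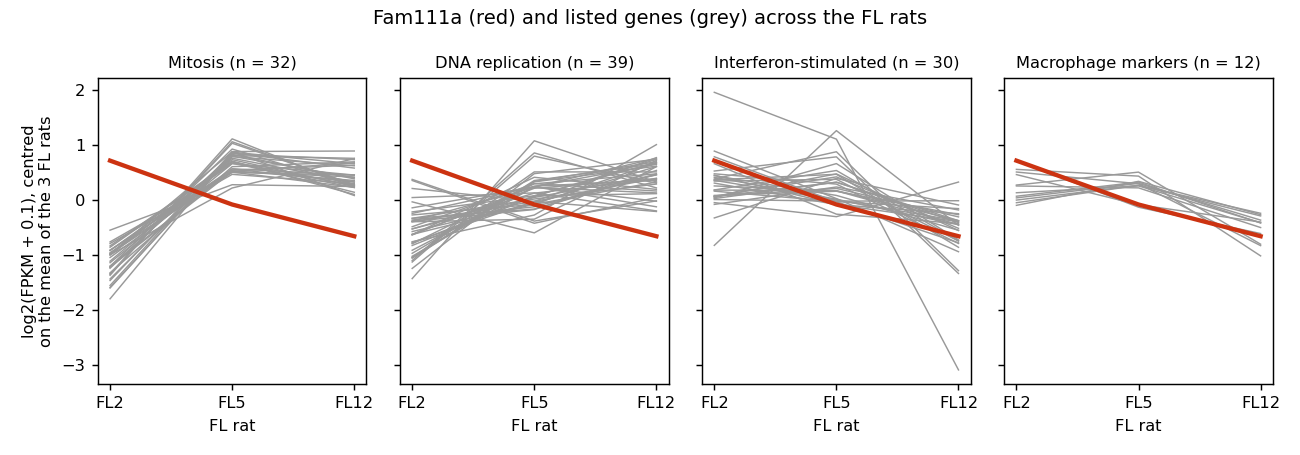
log2(FPKM + 0.1) in FL2, FL5 and FL12, each gene centred on its mean over these 3 rats, for Fam111a (red, the same in each panel) and for the tested genes of 4 lists (grey, 1 line per gene). Fam111a goes from 0.72 in FL2 to -0.65 in FL12, FL2 is the lowest of the 3 for 32 of 32 mitosis genes, and FL12 is the lowest for 26 of 30 interferon targets and 12 of 12 macrophage markers.

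The genes whose values followed Fam111a most closely in the FL rats were found by the root mean square distance of the centred log2(FPKM + 0.1) values, over 10941 genes with an FL mean of at least 1 FPKM. Centred values of 3 rats leave little room to tell profiles apart, and the distance says nothing of the CL group or of shared control. The closest were the kinase gene Pim1 (0.035), the endoplasmic reticulum chaperone Calr (0.037), the macrophage scavenger receptor Marco (0.040), AABR07065789.3 (0.041) and the interferon-induced GTPase Irgm (0.061), where the median gene was at 0.640. Of these, Marco was also upregulated. Marco had 8.74, 14.1 and 12 FPKM in the CL rats and 79.0, 43.9 and 31.5 FPKM in the FL rats. All FL rats were above all CL rats (log2 difference 2.06, limma adjusted p = 0.0069, between 0.00542 and 0.0328 over the alternatives). AABR07065789.3 had 1.48, 0.46 and 0.18 FPKM in the CL rats and 10.5, 6.44 and 4.09 FPKM in the FL rats. Its groups did not overlap either, with a log2 difference of 3.40, but no test is given because it entered by its FL level alone. Pim1, Calr and Irgm had log2 differences of -0.07, 0.10 and -0.33, with the CL rats between the highest and the lowest FL rat, and did not pass the test. The 41 proliferation genes above the same level had a median distance of 1.20 and the closest of them, Prim2, 0.392. The 27 interferon targets had a median of 0.451, with Oas1a closest at 0.085. For the 12 macrophage markers the median was lower, at 0.424, with Marco closest. The 9 hepatocyte markers, which are entries of 8 genes, had a median of 0.710. The closest was an entry of G6pc (ENSRNOG00000051171) at 0.081. Another entry of G6pc had the reverse order, with 10.1, 11.9 and 14.6 FPKM in the FL rats. With quantile normalization 1 of the 5 closest genes stayed among the first 5.

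Over all 6 rats, where the distance also counts the size of the increase, the closest of 14863 genes were Dbp (0.822), AABR07065834.1 (0.971), Lilrb4 (1.06), Gpnmb (1.08) and Mmp12 (1.20), against a median of 3.02. Dbp had 0.46, 0.91 and 0.81 FPKM in the CL rats and 25.6, 27.1 and 31.8 FPKM in the FL rats. It was nearly even in the FL group, unlike Fam111a, and every FL rat was far above the CL rats, with no test given because the distance used this contrast. Gpnmb, a glycoprotein of lipid-laden macrophages, had 4.25, 3.65 and 4.11 FPKM in the CL rats and 64.7, 144.2 and 92.9 FPKM in the FL rats. These genes resemble Fam111a in the gap between the groups, and none has its order of the FL rats: FL2 was the lowest FL rat for Dbp, Gpnmb and Mmp12, and FL5 for Lilrb4 and for AABR07065834.1, which like Fam111a was highest in FL2.

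Markers of several cell types moved with the groups or with the FL rats, and their part in the level of Fam111a was not tested. The numbers of upregulated markers below stand against 9.29% of all genes tested. For the numbers under the alternatives, this share lay between 3.07% with quantile normalization and 12.3% without FL2. Of 12 macrophage markers, 3 were upregulated (Marco, Cd68 and Csf1r) and 0 downregulated, and the sum was 303, 277 and 295 FPKM in the CL rats and 516, 477 and 289 FPKM in the FL rats, with Mpeg1 the most abundant. FL12 was the lowest FL rat for 12 of 12 of them (24.8% of all genes tested). The order of Fam111a was found in 5 of 12 (12.1%), while the other 7, Cd68 and Csf1r among them, were highest in FL5. Of these 5, Marco alone was upregulated. The others were Vsig4, Clec4f, Mpeg1 and Cd14, with log2 differences of 0.51, -0.02, -0.17 and -0.70. Without Mpeg1 the sums of FL2 and FL5 were close, at 399 and 396 FPKM. Of 10 stellate cell and myofibroblast markers, 6 were upregulated and 0 downregulated, and FL2 was the lowest FL rat for 10 of 10 (51.2% of all genes tested), with sums of 78.0, 83.6 and 76.0 FPKM in the CL rats, 201 in FL2, 520 in FL5 and 483 in FL12, and Col3a1 the most abundant. Of 10 lymphocyte markers 2 were upregulated (Igj and Cd4), and Igj was the most abundant. The sums were 23.3, 16.7 and 17.1 FPKM in the CL rats and 77.1, 61.6 and 51.9 FPKM in the FL rats. Cd4 had 18.2, 23.9 and 21.3 FPKM in the FL rats. Cd3e, Cd3d and Cd3g were at or below 1.03 FPKM in every rat and were not called. Of 6 dendritic cell markers 2 were upregulated (Cd74 and Tcf4), and Cd74 was the most abundant. Siglech, Flt3, Clec9a and Xcr1 were not called, with log2 differences of 1.21, 0.73, 0.31 and -0.38. The sums were 30.3, 35.8 and 37.3 FPKM in the CL rats and 136, 106 and 103 FPKM in the FL rats. The order of Fam111a was found in 3 of the 10 lymphocyte and 3 of the 6 dendritic markers. It was seen in both sums, but not without Igj and Cd74. The FL rats then had 24.2, 31.2 and 24.7 FPKM for lymphocyte markers, most of it Cd4, and 5.03, 6.58 and 7.84 FPKM for dendritic markers. Of 5 neutrophil markers 3 were upregulated, and their sum was at most 4.95 FPKM in any rat, with S100a8 the most abundant. This number was 1 when any single rat was left out, of 4 tested without FL12 and of 5 otherwise, 1 with a pseudocount of 1, median scaling, no filter, no trend or a mean of at least 1 FPKM, 2 with a pseudocount of 0.01 and 0 with quantile normalization. Over the alternatives, between 2 and 4 macrophage, 5 and 7 myofibroblast, 2 and 3 lymphocyte and 1 and 3 dendritic markers were upregulated, with 1 dendritic marker without FL5 or FL12, with a pseudocount of 1 and after median scaling or quantile normalization. By limma, 0 hepatocyte markers of 9, 0 endothelial of 7, 0 cholangiocyte of 6 and 0 erythroid of 5 were called, and 2, 3, 0 and 1 of them had an unadjusted p under 0.05, against 35.5% of all genes tested. The hepatocyte sum was 42143.3, 39475.4 and 40052.3 FPKM in the CL rats and 30343.5, 33513.5 and 32244.1 FPKM in the FL rats. All FL sums were below those of the CL rats, and Alb was the most abundant marker. Without Alb the sums were 8751.3, 8044.4 and 8060.6 FPKM in the CL rats. In the FL rats they were then 6194.9, 8461.4 and 7034.7 FPKM, so FL5 was above CL6 and CL7. Of the 9 hepatocyte markers, which are entries of 8 genes, 6 had a log2 difference above 0, against 11575 of the 14864 genes tested. Their median log2 difference was 0.14, or -0.15 beside that of all genes. The endothelial sum lay between 68.5 and 93.8 FPKM and the cholangiocyte sum between 5.56 and 11.3 FPKM over the 6 rats, with Kdr and Epcam the most abundant. The erythroid sum was 87.8, 154 and 110 FPKM in the CL rats and 122, 46.3 and 48.8 FPKM in the FL rats, with Hbb the most abundant, and FL2 was the highest FL rat for 4 of 5 erythroid markers (21.2% of all genes tested). Without FL2, 3 of the 5 erythroid markers were downregulated (1.08% of all genes tested) and 1 of the 9 hepatocyte markers upregulated (12.3%). None of the markers in these lists was listed at 0 in all 6 rats.

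The nearest genes with a value on each side of Fam111a on chromosome 1 were looked at next, in the order that RefSeq (GRCr8) gives them. Of the 5 genes with a value on each side, 9 of 10 were tested, 0 were called by limma and 2 had an unadjusted p under 0.05, against 9.29% upregulated, 0.935% downregulated and 35.5% of all genes tested, and their log2 differences lay between -0.43 for Glyat and 0.72 for Dtx4. On one side these were Dtx4, Mpeg1, Osbp, Patl1 and Mrpl16. On the other they were Glyatl1, Glyat, the olfactory receptor Olr338, which was too low to be tested, Glyatl2 and Cntf. Counted in RefSeq genes from Fam111a, Dtx4 and Mpeg1 were at places 3 and 4, but Osbp, Patl1 and Mrpl16 at places 35, 40 and 48. The genes of the other side were at places 2 to 7. The glycine acyltransferase genes Glyat, Glyatl1 and Glyatl2, which conjugate acyl groups in liver mitochondria, were well expressed in both groups, for example Glyatl1 with 42.5 ± 2.99 FPKM in the CL group and 41.5 ± 2.82 in the FL group (SD, n = 3). No tested neighbour came near the difference of 6.22 of Fam111a, and the largest, that of Dtx4, was 1.10 and called without FL2. Of the 9 tested neighbours, 5 had the order of Fam111a among the FL rats, against 12.1% of all genes tested, a count that was made after the values were seen. Their FL rats spanned 0.18 on the log2 scale for Glyatl1, 0.32 for Osbp and Glyatl2, 0.60 for Glyat and 0.86 for Mpeg1, against 1.37 for Fam111a. Mpeg1, which is also a macrophage marker, had 102, 87.2 and 97.4 FPKM in the CL rats and 118, 80.5 and 64.7 FPKM in the FL rats. Between Dtx4 and Fam111a, RefSeq lists Fam111al1, a protein-coding gene, and the pseudogene Fam111a-ps1. The data hold no values under either name. How reads that these copies share with Fam111a were treated was not analysed here, and since reads were counted where they mapped to a single place, the Fam111a level is uncertain to that extent.

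The promoter of Fam111a is printed with motifs known from promoters of proliferation genes and with the D-box, the motif that the DBP protein binds, since Fam111a was compared with these genes. The RefSeq window (GRCr8, chr1:219065389-219065688, + strand) holds 250 bases before the start of the gene and 50 after it, 5′ to 3′, with every match to a searched motif in capitals.
Fam111a: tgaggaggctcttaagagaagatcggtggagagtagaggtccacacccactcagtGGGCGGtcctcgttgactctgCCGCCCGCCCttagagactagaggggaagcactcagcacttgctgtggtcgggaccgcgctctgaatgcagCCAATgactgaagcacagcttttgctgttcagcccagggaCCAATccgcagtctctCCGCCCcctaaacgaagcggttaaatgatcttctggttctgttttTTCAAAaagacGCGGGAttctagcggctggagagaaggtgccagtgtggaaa
Both strands were searched for letters without mismatch in the 33469 promoters of this length. The CCAAT box (CCAAT) was found 2 times, and 37.5% of all promoters hold it. The GC box (GGGCGG) was found 4 times, with an overlap between 2 of the matches, and 33.1% of promoters hold it. The cell cycle homology element (TTTGAA) was found 1 time (18.3% of promoters) and the core of the E2F motif (GCGGGA) 1 time (18.7%). The longer E2F forms TTTCCCGC (0.974%) and TTTGGCGC (0.493%) and the D-box, TTATGTAA (0.893%), had 0 matches in this window. A match describes these letters only, and nothing was measured here of what binds them.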

How the data were processed

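Liver RNA of 6 rats was measured by sequencing. The reads were trimmed, aligned with TopHat2 and, where they mapped to a single place, counted per gene by the authors, who deposited FPKM values rounded to 2 decimals. The authors' own calls came from edgeR and were not used. The genome named is GRCh38, a human build, while the table holds rat identifiers, so the genome used is uncertain. FPKM divides by fragments and transcript length, and no further scaling between rats is stated. The FPKM values summed to between 272110 and 340467 per rat. Another 2 columns of values, which carry the name of no sample of the series, were not used. Genes were tested with limma 3.58.1 in R 4.3.3 on log2(FPKM + 0.1), the prior variance being a trend in the mean. Benjamini-Hochberg adjustment ran over 14864 genes, and a call needed an adjusted p under 0.05 together with a 2-fold difference. The log2 difference understates the change of low genes. The test was checked on simulated data with independent genes and shifts well above the 2-fold limit. That check says nothing of calls near the limit or of genes that vary together. Lists and the distance between profiles were computed in Python 3.11.15 with pandas 2.3.3. Named genes were Fam111a, Pcna, the next 5 by log2 difference, in each pathway list up to 4 called genes and the 2 most abundant, 5 proliferation genes, the 5 closest genes by each distance and 5 neighbours on each side. Of these, 1 gene is not reported here. Others were named after their values were seen. Fam111a and the lists were chosen with earlier results of these data known. Alternatives were other pseudocounts, filters and scalings, limma without trend and leaving out each rat.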

Additional observations from a re-analysis of the deposited data

How the results depend on the processing

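Fam111a was number 1 among the proliferation genes under every alternative run, which its choice as the largest increase and its distance from them fixed. Its log2 difference was 4.34 with a pseudocount of 1 and between 5.79 and 6.72 otherwise, and its rank among genes tested was 2 with a pseudocount of 1, 3 with 0.01, 1 to 2 when a rat was left out and 1 under the others. The numbers of upregulated genes for PCNA partners, crosslink repair, replication and mitosis (2, 2, 7 and 8) depended on the processing: they were 0, 0, 1 and 2 with a pseudocount of 1; 1, 1, 2 and 3 without a filter; 0, 1, 4 and 4 when the mean had to reach 1 FPKM; 1, 1, 2 and 3 after median scaling; and 0, 0, 1 and 0 after quantile normalization. Over all genes tested, the share upregulated also fell, from 9.29% to 3.11%, 6.32%, 8.11%, 5.56% and 3.07% in the same order. With a pseudocount of 0.01, 1 PCNA partner was upregulated, and without trend 4 mitosis genes were. When a rat was left out, the 4 numbers ranged from 0 to 5, 1 to 6, 0 to 14 and 0 to 29, the highest without FL2, and that of interferon targets from 0 to 3, while the share of all genes ranged from 4.95% to 12.3%. Of the 5 closest genes, 1 stayed across the FL rats with quantile normalization, and 3 across the 6 rats with a pseudocount of 1. For 53 named genes and 681 values in all, 534 kept direction and call, 107 lost the call, 5 gained it and 35 changed sign, all of the last for genes that were not called. The filter at a mean of 1 FPKM removed 8 of these genes, which have no value there. With median scaling the log2 difference became -0.22 for Vcp, -0.18 for Parp1, -0.027 for Rrm2, -0.14 for Bst2, -0.15 for Htra1, -0.13 for Calr, -0.015 for Osbp, -0.012 for Patl1 and -0.14 for Cntf. With quantile normalization it became -0.029 for Vcp, -0.15 for Parp1, -0.036 for Top1, -0.11 for Sprtn, -0.39 for Rrm2, -0.081 for Htra1, -0.058 for Patl1 and -0.47 for Cntf, and with a pseudocount of 0.01 it was -0.40 for Rrm2. When a rat was left out, it ranged from -0.10 to 0.12 for Vcp, -0.046 to 0.11 for Parp1, -0.31 to 0.66 for Rrm2, -0.077 to 0.20 for Bst2, -0.040 to 0.18 for Htra1, -0.43 to 0.23 for Pim1, -0.24 to 0.40 for Calr, -0.69 to 0.023 for Irgm, -0.40 to 0.029 for Mpeg1, -0.087 to 0.023 for Glyatl1 and -0.28 to 0.35 for Cntf. The cause of these changes was not tested. The median difference of all genes moved from 0.29 to 0.08 with median scaling and -0.05 with quantile normalization. No paired analysis was possible because the CL and FL rats are different animals. With 3 rats per group and no read counts, the precision of the low CL values of Fam111a is not known.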
